A study of Mus musculus with 12 samples.

Results

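The 9 genes described here write, copy and remove methyl groups on cytosine in DNA. They are Dnmt3a, Dnmt3b, Dnmt3l, Dnmt1, Uhrf1, Tet1, Tet2, Tet3 and Tdg, taken by gene name for their known roles, and all 9 were found among the 51467 genes of the deposited count table. Levels were followed as mouse embryonic stem cells (ESCs) became epiblast-like cells (EpiLCs), the step at which cells leave the naive state for a formative one. The cells were 1 V6.5 line that carries fluorescent reporters of the miR-290 and miR-302 loci, so that the replicates share 1 genetic background. ESCs were held in serum with LIF and the 2i inhibitors PD0325901 (of MEK) and CHIR99021 (of GSK3). EpiLCs were harvested about 56 h after the withdrawal of LIF and 2i. Every culture, ESCs included, was fed 500 µM 4-thiouridine (4sU) for 30 min before lysis. Its RNA was then divided into a captured 4sU fraction, which reports nascent RNA, and unselected RNA depleted of ribosomal RNA, called total RNA. There were 4 groups of 3 libraries, 12 in all.

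Methylation of CpG dinucleotides is laid down by the de novo methyltransferases DNMT3A and DNMT3B. DNMT3L resembles them but has no catalytic activity of its own and stimulates theirs. At replication UHRF1 recognises half-methylated CpGs and brings in DNMT1, which copies the mark onto the new strand. The dioxygenases TET1, TET2 and TET3 oxidise 5-methylcytosine, and the glycosylase TDG cuts out the most oxidised forms so that base excision repair restores cytosine. ESCs in 2i are known for low DNA methylation, and methylation is known to rise as cells pass to the epiblast-like state. DNA methylation itself was not measured in these libraries.

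Library totals were 3097693 to 5385644 counted reads for 4sU (median 4169803) and 9300845 to 21975684 for total RNA (median 10971213). Levels below are read counts brought to a common library total with TMM scaling (CPM), and changes are log2 ratios of EpiLC over ESC with their standard error (SE) from limma-voom fitted to all 12 libraries. A call needed both an adjusted p under 0.05 (Benjamini-Hochberg) and a log2 fold change beyond 1 in either direction. In each of the 12 pairs of replicates the counts differed beyond sampling noise (chi-square per degree of freedom 1.39 to 28.6). ESC replicate 3 stood apart from the other ESC replicates in both assays, and results that rest on it are given with and without it. Cell identity was described with listed markers, which were chosen with earlier results of these data known. In total RNA all 6 naive markers (Zfp42, Esrrb, Klf4, Tbx3, Tfcp2l1 and Nr0b1) were called lower in EpiLCs and all 4 EpiLC markers (Fgf5, Otx2, Pou3f1 and Sox3) were called higher. Markers of other cells had low sums, which were higher in EpiLC than in ESC total libraries. The 7 primitive endoderm markers summed to 5.10 to 11.99 CPM in ESC total and 18.6 to 21.3 CPM in EpiLC total libraries. Of the 4 tested, 2 were called higher and 1 lower. The 7 fibroblast markers summed to 3.88 to 4.73 and 14.6 to 18.9 CPM, with 2 of 3 tested called higher. These 2 were Dcn (0 reads in ESC total and 40 to 56 in EpiLC total libraries) and Col1a2 (2 to 3 and 37 to 45 reads). The 7 germ layer markers summed to 37.1 to 41.4 and 55.1 to 61.5 CPM, with 3 of 6 tested called higher. Over all genes tested, 16.3% were called higher and 11.2% lower. Markers that passed the filter on low counts only through EpiLC libraries, such as Dcn and Col1a2, could only be called higher. Their counts are therefore not comparable with these shares. The part of such other cells in the results was not tested.

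Annotated starts of the genes are shown first, because the genes called changed in total RNA differ in CpG content around them. Which annotated start these cells used was not tested. RefSeq windows of 300 bases that run from upstream of each start to just past it (GRCm38.p6) were found for all 9 genes, 16 windows in all. One window is printed for each gene called changed in total RNA, with an additional internal start for Dnmt3a. For Dnmt3l and Uhrf1 the window printed is 1 of several, and the CpG counts of all are given below. Sequences run 5′ to 3′ on the strand of the gene, and capitals mark CpG dinucleotides.
Dnmt3b, chr2:153649199-153649498, + strand: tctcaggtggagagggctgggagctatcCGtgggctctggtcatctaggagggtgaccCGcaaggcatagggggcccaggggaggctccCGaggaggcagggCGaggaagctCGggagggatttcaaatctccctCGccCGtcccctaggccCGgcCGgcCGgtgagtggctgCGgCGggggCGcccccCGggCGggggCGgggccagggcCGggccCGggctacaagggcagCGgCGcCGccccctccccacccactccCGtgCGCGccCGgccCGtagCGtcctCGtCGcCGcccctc
Dnmt3a, upstream start, chr12:3806730-3807029, + strand: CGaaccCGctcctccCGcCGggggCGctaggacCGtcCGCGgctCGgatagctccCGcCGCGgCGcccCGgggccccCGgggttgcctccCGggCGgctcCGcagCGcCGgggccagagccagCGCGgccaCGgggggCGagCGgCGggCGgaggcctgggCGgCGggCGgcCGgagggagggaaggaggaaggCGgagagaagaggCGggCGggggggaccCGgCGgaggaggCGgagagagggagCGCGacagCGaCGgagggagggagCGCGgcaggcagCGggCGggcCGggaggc
Dnmt3a, internal start, chr12:3891494-3891793, + strand: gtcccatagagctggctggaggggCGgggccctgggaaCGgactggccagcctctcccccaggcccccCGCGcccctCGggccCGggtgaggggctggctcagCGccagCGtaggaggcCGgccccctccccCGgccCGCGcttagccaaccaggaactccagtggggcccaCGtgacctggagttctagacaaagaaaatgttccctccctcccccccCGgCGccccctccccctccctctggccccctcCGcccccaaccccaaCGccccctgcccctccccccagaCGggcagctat
Dnmt3l, first of 3 starts, chr10:78042037-78042336, + strand: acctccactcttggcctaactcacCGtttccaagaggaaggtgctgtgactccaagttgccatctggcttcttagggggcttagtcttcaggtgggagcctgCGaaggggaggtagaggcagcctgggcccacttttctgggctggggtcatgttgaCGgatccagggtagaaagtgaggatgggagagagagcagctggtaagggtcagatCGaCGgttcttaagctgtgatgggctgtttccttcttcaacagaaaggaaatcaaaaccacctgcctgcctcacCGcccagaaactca
Uhrf1, second of 2 starts, chr17:56304063-56304362, + strand: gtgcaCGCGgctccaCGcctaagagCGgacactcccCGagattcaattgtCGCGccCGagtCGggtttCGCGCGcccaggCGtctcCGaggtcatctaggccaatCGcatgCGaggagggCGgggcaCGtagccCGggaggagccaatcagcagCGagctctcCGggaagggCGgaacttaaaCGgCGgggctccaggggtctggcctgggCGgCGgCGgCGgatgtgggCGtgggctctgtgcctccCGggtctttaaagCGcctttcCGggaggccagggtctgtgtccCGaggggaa
Tet2, chr3:133544341-133544640, - strand: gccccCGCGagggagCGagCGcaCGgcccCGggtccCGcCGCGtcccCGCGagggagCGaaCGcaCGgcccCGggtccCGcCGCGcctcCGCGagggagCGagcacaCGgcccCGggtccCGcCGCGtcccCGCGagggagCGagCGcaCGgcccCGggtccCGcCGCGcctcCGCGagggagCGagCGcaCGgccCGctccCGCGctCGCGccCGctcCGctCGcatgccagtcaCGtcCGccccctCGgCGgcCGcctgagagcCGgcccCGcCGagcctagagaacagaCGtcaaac
The Tet2 window held 57 CpGs, the highest count of the 16, and the Dnmt3a upstream window held 46. Dnmt3b had 30, and the internal Dnmt3a window had 18. The 3 Dnmt3l windows held 6, 4 and 3 CpGs. Over all 32851 windows the median was 7 and the upper quartile 20, so the Dnmt3l windows lay below the median while Dnmt3b and Tet2, which moved in opposite directions, both lay above the upper quartile. Uhrf1 had a window with 12 and one with 33 CpGs, and Dnmt1 had windows with 2, 12 and 33. Tet1, Tet3 and Tdg had 1 window each, with 17, 22 and 26. Short words were searched on both strands as a description only. The GC box word GGGCGG, which itself holds a CpG, was present in 12 of the 16 windows (which overlap in part for Dnmt3a) and in 35.7% of all windows. An E2F word (TTTCCCGC, TTTCGCGC, TTTGGCGC or TTTGCCGC) was in 2 of the 16, the Uhrf1 window printed above and the third Dnmt1 window, and in 2.26% of all windows. A TCF/LEF word (CTTTGAA or CTTTGAT) was in 1 of the 16 and 8.65% of all, and the octamer ATGCAAAT was in none of the 16 and 1.74% of all.

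The de novo methyltransferase genes were both higher in EpiLCs, while their cofactor was lower. Dnmt3b (ENSMUSG00000027478.15, mm10 chr2:153649450-153687730, + strand) was at 139, 136 and 146 CPM in the ESC total libraries and at 1101, 1370.5 and 1399 CPM in the EpiLC total libraries. Every EpiLC value lay far above every ESC value. The change was 3.20 ± 0.09 (SE; limma-voom adjusted p = 3.71e-12), or 9.18-fold. Dnmt3a (ENSMUSG00000020661.15, mm10 chr12:3807030-3914443, + strand) was at 158, 155 and 104 CPM in ESC total and at 277, 308 and 303 CPM in EpiLC total libraries. The groups did not overlap, and ESC replicate 3 was the lowest library. The change was 1.10 ± 0.14 (limma-voom adjusted p = 9.71e-06), close to the fold threshold. Without ESC total replicate 3 it was 0.92, and without both ESC replicate 3 libraries 0.91, so that the call was then lost although the adjusted p stayed under 0.05. The counts do not tell the long Dnmt3a transcript from the shorter one that begins at the internal start.

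Dnmt3l (ENSMUSG00000000730.13, mm10 chr10:78042287-78063622, + strand) went the other way. It was at 462, 442 and 314 CPM in ESC total and at 117, 123 and 136 CPM in EpiLC total libraries. All EpiLC values lay below all ESC values, with ESC replicate 3 again the lowest of its group. The change was -1.68 ± 0.14 (limma-voom adjusted p = 8.74e-08), a 3.21-fold fall. Aire, a gene on the opposite strand that overlaps Dnmt3l, had 95 to 337 reads in ESC total and 8 to 13 in EpiLC total libraries. The counting was strand-specific, and Dnmt3l itself had 3196 to 8784 and 1050 to 1365 reads.

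The maintenance genes were both lower in EpiLC total RNA, by different amounts. Uhrf1 (ENSMUSG00000001228.14, mm10 chr17:56303321-56323486, + strand) was at 981, 930.1 and 926 CPM in ESC total and at 383, 414 and 402 CPM in EpiLC total libraries. Replicates lay close together and the groups were far apart. The change was -1.24 ± 0.06 (limma-voom adjusted p = 6.88e-10), a 2.37-fold fall. Dnmt1 (ENSMUSG00000004099.16, mm10 chr9:20907209-20959888, - strand) was at 688, 639.6 and 634 CPM in ESC total and at 454, 486 and 491 CPM in EpiLC total libraries. Its groups did not overlap either. The difference of -0.45 ± 0.07 (limma-voom adjusted p = 5.67e-05) did not reach the fold threshold. As a background for replication, 0 of 12 S-phase genes (Pcna, 6 Mcm genes and others) were called in total RNA. Over all genes 16.3% were called higher and 11.2% lower. The median change of the 12 was -0.34, against 0.02 over all genes. Of these 12, 9 had an adjusted p under 0.05 in limma-voom, against 63.5% of all genes, and 11 had an unadjusted p under 0.05. With edgeR and DESeq2 0 of the 12 were called as well.

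Among the oxidase genes only Tet2 was called in total RNA. Tet2 (ENSMUSG00000040943.12, mm10 chr3:133463679-133544390, - strand) was at 242, 264 and 427 CPM in ESC total libraries and at 24.4, 26.2 and 23.0 CPM in EpiLC total libraries. ESC replicate 3 was the highest, 1.69-fold above the mean of the other ESC replicates, and each EpiLC value was a small fraction of each ESC value. The change was -3.60 ± 0.19 (limma-voom adjusted p = 1.16e-09), a 12.2-fold fall and the farthest from 0 among the 9 genes. Tet1 (ENSMUSG00000047146.16, mm10 chr10:62804570-62899118, - strand) was at 393, 413 and 620.2 CPM in ESC total and at 270.5, 274.5 and 288 CPM in EpiLC total libraries. The groups did not overlap, and the difference of -0.74 ± 0.15 (limma-voom adjusted p = 0.000512) was under the fold threshold.

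Tet3 (ENSMUSG00000034832.15, mm10 chr6:83362373-83456392, - strand) was much lower in counts. It was at 14.6, 13.2 and 28.2 CPM in ESC total and at 30.5, 31.6 and 32.5 CPM in EpiLC total libraries. ESC replicate 3 lay 2.03-fold above the mean of the other ESC replicates and just under the EpiLC range. The difference was 0.92 ± 0.20 (limma-voom adjusted p = 0.000896), not enough for a call. When ESC total replicate 3 was left out it was 1.18 and passed. Tdg (ENSMUSG00000034674.18, mm10 chr10:82629828-82650799, + strand) was at 6.03, 5.08 and 4.13 CPM in ESC total and at 9.60, 7.86 and 8.85 CPM in EpiLC total libraries. These are 42 to 104 reads per library, and the groups did not overlap. The difference was 0.76 ± 0.16 (limma-voom adjusted p = 0.000846), again under the fold threshold.

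Across the 9 genes in total RNA, 2 were called higher (Dnmt3a and Dnmt3b), where 16.3% of the 14731 genes tested were, and 3 were called lower (Dnmt3l, Uhrf1 and Tet2), where 11.2% were. An adjusted p under 0.05 with no fold threshold was reached by 9 of 9, against 63.5% of all genes. The median change of the 9 genes was -0.45, against 0.02 over all genes. All 9 genes passed the filter on low counts. In bulk RNA a change in the share of cells and a change per cell cannot be told apart.

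**Figure D1:**
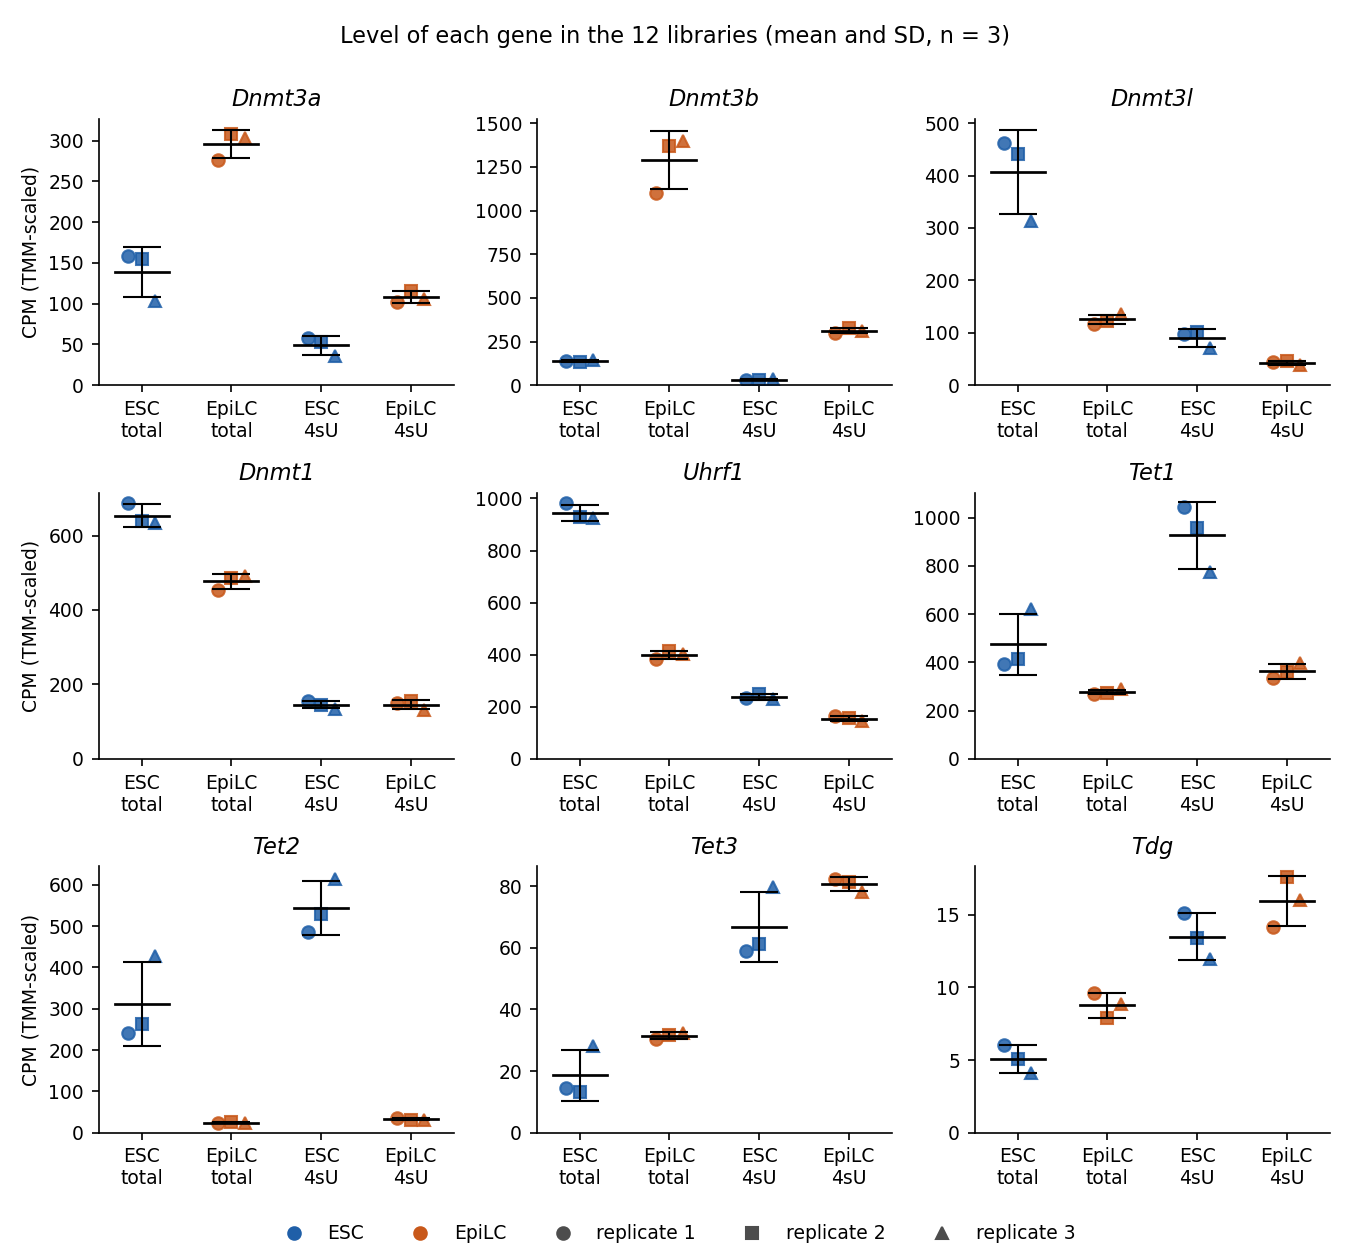
Level of each of the 9 genes (y axis, TMM-scaled CPM, linear from 0, with its own range in each panel) in ESC and EpiLC total and 4sU libraries (x axis). Points are libraries, marked by replicate number, and black lines give the mean with SD of 3 libraries. Dnmt3b in EpiLC total RNA (1101 to 1399 CPM) stands above ESC total RNA (136 to 146 CPM), Tet2 shows the opposite order, and ESC replicate 3 (triangle) lies apart for Dnmt3a, Dnmt3l and the Tet genes.

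Reads that match more than 1 place were not counted, so close copies were looked for among annotated transcripts. Of the 50-base words in the transcripts of Tdg, 41.2% also occurred in a transcript of another gene, mainly the pseudogene Tdg-ps (29.4%). The share was 15.4% for Uhrf1, nearly all with Gm5648 (14.7%), and 9.81% for Dnmt3b, all with its paralog Dnmt3c. The other 6 genes had at most 0.761%. Levels per length of Tdg, Uhrf1 and Dnmt3b were not corrected for this and are uncertain to that extent.

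Levels were next compared between genes, per kilobase of exon (RPKM, mean ± SD, n = 3). In ESC total RNA the order was led by Uhrf1 at 258 ± 8.34, Dnmt3l at 152 ± 30.0 and Dnmt1 at 104 ± 4.71. Tet2 (33.8 ± 10.99), Tet1 (33.1 ± 8.74) and Dnmt3b (32.4 ± 1.25) followed and overlapped with their neighbours. Dnmt3a was lower at 14.01 ± 3.08. Tet3 (1.59 ± 0.707) and Tdg (1.44 ± 0.268) closed the order and overlapped. In EpiLC total RNA Dnmt3b led with 298 ± 38.1, ahead of Uhrf1 at 109 ± 4.29 and Dnmt1 at 75.7 ± 3.15. Dnmt3l was at 47.0 ± 3.53, Dnmt3a at 29.9 ± 1.71 and Tet1 at 19.3 ± 0.646. Tet2 had dropped to the level of the lowest genes, where Tet3 (2.68 ± 0.0872), Tet2 (2.66 ± 0.173) and Tdg (2.48 ± 0.246) overlapped with their neighbours in the order.

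In nascent RNA the order was different, with Tet1 and Tet2 near the top in ESCs. Uhrf1 (64.7 ± 2.90 RPKM), Tet1 (64.4 ± 9.63) and Tet2 (59.0 ± 7.18) overlapped with their neighbours there. Dnmt3l (33.7 ± 6.17), Dnmt1 (23.0 ± 1.53) and Dnmt3b (7.20 ± 0.635) came next. Tet3 (5.68 ± 0.967), Dnmt3a (4.94 ± 1.18) and Tdg (3.82 ± 0.453) were lowest, and from Dnmt3b down each neighbour overlapped the next. In EpiLC nascent RNA Dnmt3b led with 72.4 ± 3.16, and Tet2 was lowest at 3.56 ± 0.247. Per length, Dnmt3b stood above Uhrf1 and Dnmt1 in EpiLCs in both assays, while the mean of Dnmt3a stayed under that of Dnmt1 in both cell types and both assays.

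**Figure D2:**
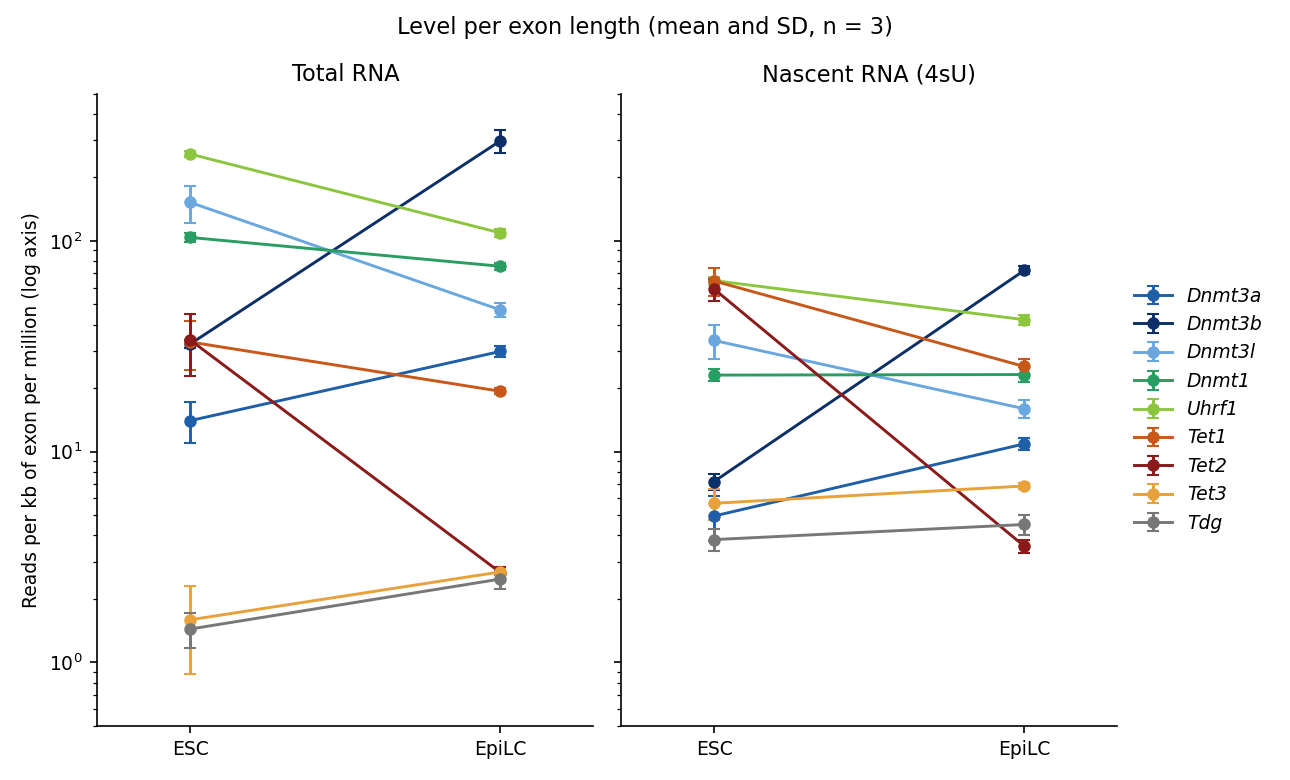
Level per exon length (y axis, RPKM, log axis) of the 9 genes in ESCs and EpiLCs (x axis), for total RNA at left and nascent RNA at right. Points are means and bars SDs of 3 libraries. The Dnmt3b line climbs from 32.4 to 298 in total RNA and crosses those of Uhrf1, Dnmt3l and Dnmt1, while the Tet2 line drops from 33.8 to 2.66 and meets those of Tet3 and Tdg.

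Ratios of levels per length within a library do not depend on scaling between libraries. The ratio of Dnmt3b to Dnmt3a in total RNA was 2.01, 2.00 and 3.23 in the ESC libraries and 9.12, 10.2 and 10.6 in the EpiLC libraries. The ratio of Dnmt3l to Dnmt3b was 5.39, 5.29 and 3.48 in ESCs and 0.172, 0.146 and 0.157 in EpiLCs, a 29.3-fold drop. Dnmt3l thus lay above Dnmt3b in every ESC library and below it in every EpiLC library. It was still above Dnmt3a in EpiLC total RNA, with means of 47.0 and 29.9 RPKM. Dnmt3a and Dnmt3b together, relative to Dnmt1, were at 0.448 ± 0.0130 in ESCs and 4.33 ± 0.354 in EpiLCs (SD, n = 3). Uhrf1 relative to Dnmt1 was at 2.49 ± 0.0322 and 1.44 ± 0.0295.

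Among the oxidases, the ratio of Tet1 to Tet2 was 1.04, 1.00 and 0.930 in ESC total libraries and 7.09, 6.72 and 8.03 in EpiLC total libraries. ESCs thus held similar levels of both transcripts and EpiLCs mainly Tet1. The ratio of Tet3 to Tet1 was 0.0468 ± 0.00839 in ESCs and 0.139 ± 0.00158 in EpiLCs, so Tet3 stayed the smaller of the pair. Ratios moved the same way in nascent RNA, where Dnmt3b to Dnmt3a went from 1.54 ± 0.520 to 6.66 ± 0.180 and Tet1 to Tet2 from 1.11 ± 0.290 to 7.17 ± 1.02. All 6 ratios were non-overlapping between the cell types in both assays. With 3 against 3 libraries each of these 12 comparisons had p = 0.1 in a two-sided exact permutation test, the smallest this design allows, and 0.1 after Benjamini-Hochberg adjustment over the 12.

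**Figure D3:**
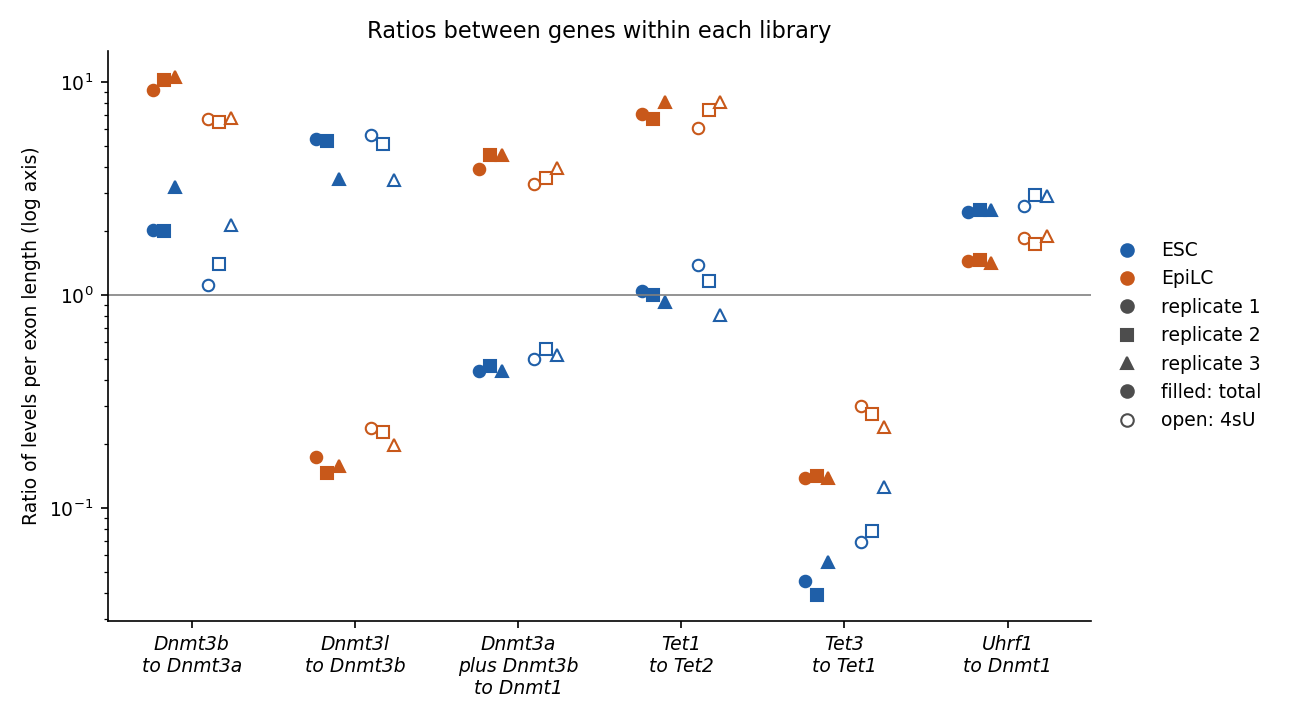
Ratio of 2 genes' levels per exon length within a library (y axis, log axis) for 6 pairs or sums of genes (x axis). Each point is a library, blue for ESC and orange for EpiLC, filled for total and open for 4sU RNA, with the marker giving the replicate number. ESC and EpiLC points do not overlap for any ratio, and Dnmt3l to Dnmt3b lies above 1 in all ESC libraries and below 1 in all EpiLC libraries.

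Nascent RNA was used to ask whether the same genes differed in newly made transcripts. Dnmt3b was at 28.0, 32.4 and 33.1 CPM in ESC 4sU and at 299, 327 and 313 CPM in EpiLC 4sU libraries. The nascent change of 3.33 ± 0.13 (limma-voom adjusted p = 2.21e-10) was close to the change in total RNA. Dnmt3a was at 57.9, 53.3 and 35.8 CPM in ESC 4sU and at 102, 116 and 105 CPM in EpiLC 4sU libraries. Its nascent change was 1.137 ± 0.19 (limma-voom adjusted p = 0.000185), and 0.93 without both ESC replicate 3 libraries, under the fold threshold. Tet2 was at 485, 530.3 and 615 CPM in ESC 4sU and at 35.3, 31.4 and 31.5 CPM in EpiLC 4sU libraries, and its nascent change was -4.04 ± 0.23 (limma-voom adjusted p = 6.70e-09). All 3 genes moved the same way in total and nascent RNA.

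Tet1 nascent RNA was at 1046, 958 and 775 CPM in ESC 4sU and at 335, 360 and 397 CPM in EpiLC 4sU libraries. Its nascent change of -1.35 ± 0.15 (limma-voom adjusted p = 5.76e-06) passed both thresholds, while its difference in total RNA did not (the test of that contrast is the stability change below). Dnmt3l was at 96.9, 102 and 71.0 CPM in ESC 4sU and at 43.8, 46.0 and 38.0 CPM in EpiLC 4sU libraries. Its nascent change was -1.07 ± 0.19 (limma-voom adjusted p = 0.000378), which fell under the fold threshold without ESC 4sU replicate 2 (-0.92) or without EpiLC 4sU replicate 3 (-0.93). Uhrf1 had a nascent difference of -0.62 ± 0.08 (limma-voom adjusted p = 1.17e-05), short of the fold threshold. Dnmt1 was at 155, 146 and 135 CPM in ESC 4sU and at 151, 155 and 133 CPM in EpiLC 4sU libraries. These values overlapped, with a difference of 0.01 (95% confidence interval -0.18 to 0.20). Tet3 (0.30 ± 0.19, limma-voom adjusted p = 0.201) and Tdg (0.23 ± 0.18, limma-voom adjusted p = 0.295) also overlapped between the cell types. For Tet3 the overlap came from ESC replicate 3, with 59.1, 61.2 and 79.7 CPM in ESC 4sU and 82.2, 81.4 and 78.0 CPM in EpiLC 4sU libraries. Without both ESC replicate 3 libraries the Tet3 difference was 0.40 (limma-voom adjusted p = 0.00056), under the fold threshold. The adjusted p of Tet3 was under 0.05 in 4 of 23 alternative fits.

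In nascent RNA 2 of the 9 genes were called higher, where 11.9% of all genes were, and 3 were called lower (Dnmt3l, Tet1 and Tet2), where 13.5% were. An adjusted p under 0.05 alone was reached by 6 of 9, against 52.5% of all genes. The total and nascent comparisons used different libraries.

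Stability was tested as the change in total RNA minus the change in nascent RNA. No gene of the 9 passed both thresholds in limma-voom, edgeR or DESeq2, where 1.24% of all genes were called higher and 0.305% lower in limma-voom. An unadjusted p under 0.05 was found for 6 of the 9. With the adjusted p alone 2 of 9 passed (Uhrf1 and Dnmt1), against 4.6% of all genes. This count depended on the fit. It was 3 with DESeq2 (7.95% of all genes), 4 with a block per culture (11.8%), and 6 with sample quality weights (19.3%), without ESC total replicate 3 (14.01%) or without both ESC replicate 3 libraries (20.4%). Uhrf1 had a stability change of -0.63 ± 0.10 (limma-voom adjusted p = 0.00503), and its adjusted p stayed under 0.05 in all 23 alternative fits (at most 0.0253). Dnmt1 had -0.46 ± 0.11 (limma-voom adjusted p = 0.0339). For Dnmt1 the adjusted p was over 0.05 in 6 of 12 leave-one-out fits, those without EpiLC total replicate 1, 2 or 3, EpiLC 4sU replicate 1 or 2, or ESC total replicate 2 (at most 0.104). The median stability change of all genes was 0.11, and scaling by library totals or median-of-ratios moved it to 0.18 or 0.03 without turning the sign of either gene. Dnmt3l (-0.62 ± 0.24, limma-voom adjusted p = 0.141), Tet3 (0.62 ± 0.28, limma-voom adjusted p = 0.199) and Tet1 (0.61 ± 0.21, limma-voom adjusted p = 0.108) had stability values of like size with larger errors, and did not pass in the main limma-voom fit. Tdg (0.53 ± 0.24, limma-voom adjusted p = 0.209) and Tet2 (0.44 ± 0.30, limma-voom adjusted p = 0.417) did not pass either. Sample quality weights or leaving out ESC replicate 3 changed this for 4 genes. With the weights and all 12 libraries, the limma-voom adjusted p was 0.00021 for Tet1, 0.0014 for Tet3, 0.012 for Tet2 and 0.0055 for Dnmt3l. Dnmt3l also passed with DESeq2 (DESeq2 adjusted p = 0.0418), and Dnmt3l and Tet3 passed with a block per culture. Without both ESC replicate 3 libraries Tet1 was at 0.94 ± 0.09 (limma-voom adjusted p = 2.84e-06), over 1.5 times its value in the main fit. Tet3 was then at 0.78 ± 0.12 (limma-voom adjusted p = 0.000292), Tet2 at 0.60 ± 0.13 (limma-voom adjusted p = 0.00317) and Dnmt3l at -0.62 ± 0.12 (limma-voom adjusted p = 0.00152). Without ESC total replicate 3 alone the values were 0.81 for Tet1, 0.88 for Tet3, 0.67 for Tet2 and -0.78 for Dnmt3l, and all 4 passed. None of the 9 genes reached the fold threshold in any of these fits. For Dnmt3b the interval of the stability change ran from -0.47 to 0.21 and for Dnmt3a from -0.54 to 0.48.

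**Figure D4:**
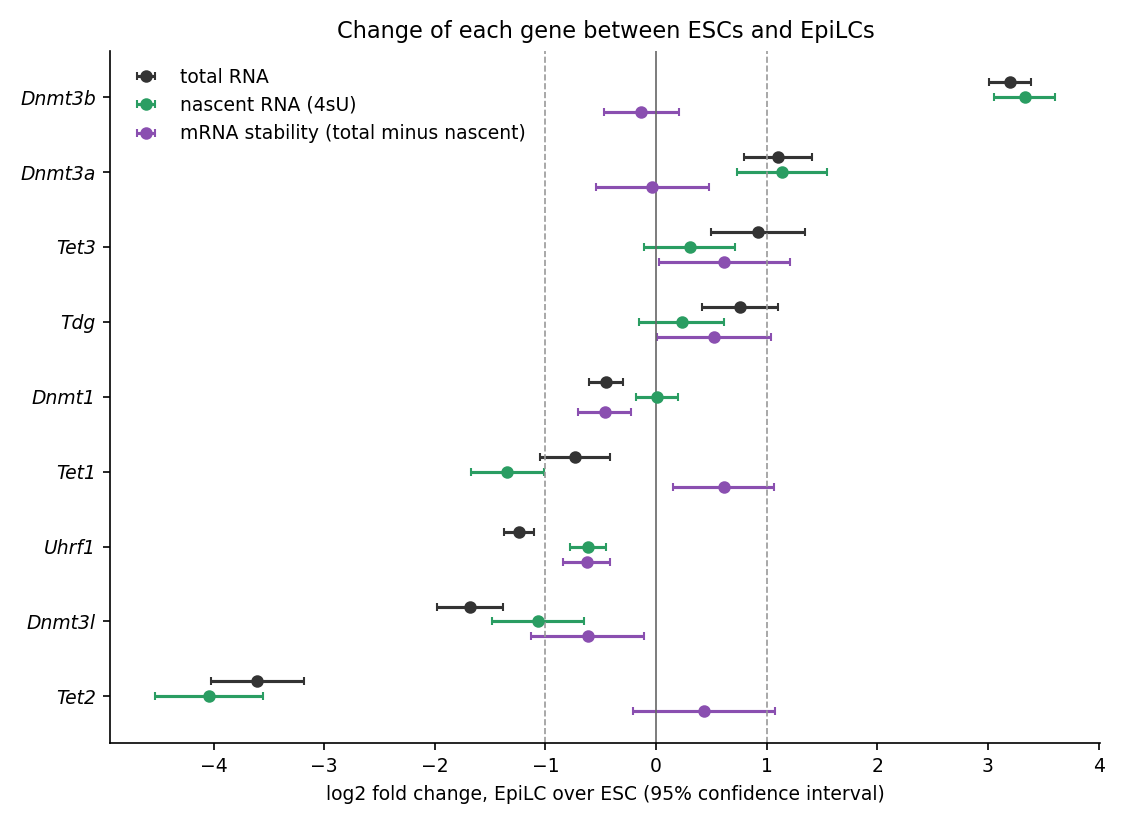
Change between ESCs and EpiLCs (x axis, log2 EpiLC over ESC, with 95% confidence intervals) of each of the 9 genes (y axis, ordered by the change in total RNA). Black is total RNA, green is nascent RNA and purple is stability, the difference between them, and dashed lines mark the fold threshold. Total and nascent changes are 3.20 and 3.33 for Dnmt3b and -3.60 and -4.04 for Tet2, while Dnmt1 has a nascent change at 0.01 and a stability change of -0.46.

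Relative stability within a cell type was read as log2 of total over 4sU level, here for the pair of libraries (4sU and total) that carry 1 number, called a culture. The labels do not state that a number marks a shared extract. The 9 genes fell into separate ranges by role. The methyltransferase genes, Dnmt3l and Uhrf1 were all above 0 in 6 of 6 cultures, and the Tet genes and Tdg all below 0 in 6 of 6. In ESCs Dnmt3b was at 2.17 ± 0.12, Dnmt3l at 2.17 ± 0.07, Dnmt1 at 2.17 ± 0.05, Uhrf1 at 2.00 ± 0.08 and Dnmt3a at 1.51 ± 0.05 (SD, n = 3). Fitted values lay at percentiles 86.9 (Dnmt3a) to 95.9 (Dnmt3b) of all 14731 genes. Tet2 (-0.84 ± 0.28), Tet1 (-0.98 ± 0.58), Tdg (-1.42 ± 0.10) and Tet3 (-1.91 ± 0.37) lay at percentiles 16.6 (Tet3) to 29.9 (Tet2). The median of all genes was 0.03.

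In EpiLCs the order of the groups was kept. Dnmt3b was at 2.04 ± 0.14, Dnmt1 at 1.71 ± 0.16, Dnmt3l at 1.56 ± 0.24, Dnmt3a at 1.46 ± 0.06 and Uhrf1 at 1.37 ± 0.12. Tet1 was at -0.39 ± 0.08, Tet2 at -0.42 ± 0.14, Tdg at -0.86 ± 0.30 and Tet3 at -1.35 ± 0.09, against a median of all genes of 0.15. Within the upper group the ESC and EpiLC cultures of Uhrf1, Dnmt1 and Dnmt3l did not overlap, and EpiLCs were lower, while those of Dnmt3a and Dnmt3b did overlap. Within the lower group the cultures of Tet3 and Tdg did not overlap, and EpiLCs were higher, while ESC replicate 3 lay among the EpiLC values for Tet1 and Tet2. How often all genes show no such overlap was not counted, so these patterns are a description only. The stability changes of Dnmt3l, Tet3 and Tdg did not pass the adjusted p in the main fit. The Tet1 spread in ESCs came from replicate 3, at -0.32 against -1.41 and -1.21, where Tet1 was 1.54-fold above the mean of the other replicates in total RNA and at 0.773 of it in 4sU RNA.

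**Figure D5:**
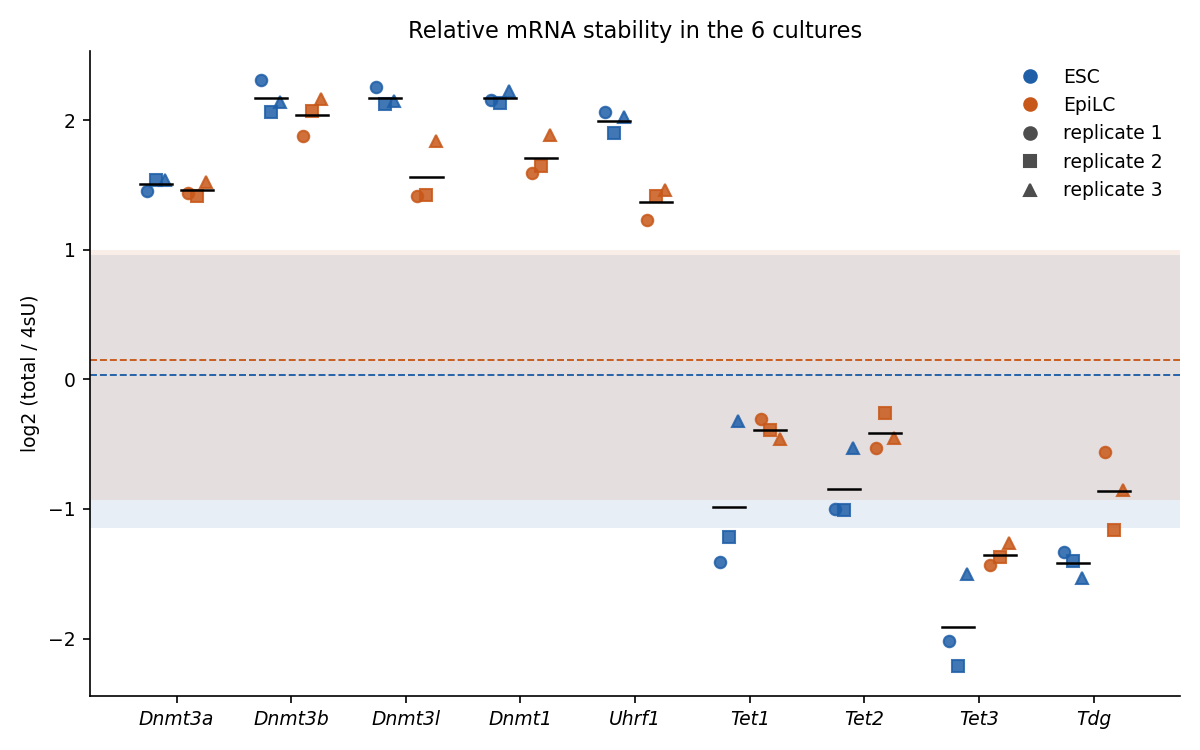
Relative stability (y axis, log2 of total over 4sU level) of the 9 genes (x axis) in 3 ESC (blue) and 3 EpiLC (orange) cultures, marked by replicate number, with black lines for means. Dashed lines are the medians of all genes (0.03 in ESCs and 0.15 in EpiLCs) and bands their middle quartiles. The Dnmt genes and Uhrf1 lie above the bands in all cultures, and Tet1, Tet2, Tet3 and Tdg lie below 0.

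The line reports the miR-290 and miR-302 loci. The 3′ UTRs of the 9 genes were searched for a match to 1 seed, that of the microRNAs listed below. No other seed was searched for. The mature sequences below (RefSeq, GRCm38.p6) are written 5′ to 3′ with the seed, bases 2 to 8, in capitals.
mmu-miR-291a-3p: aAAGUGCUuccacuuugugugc
mmu-miR-294-3p: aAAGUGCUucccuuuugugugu
mmu-miR-295-3p: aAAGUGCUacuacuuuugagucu
mmu-miR-302b-3p: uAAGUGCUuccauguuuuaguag
mmu-miR-302d-3p: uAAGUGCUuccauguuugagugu
In the principal transcript of each gene the heptamer AGCACTT, the complement of this seed, occurred at 2 sites in Tet1 and 1 in Tet2. The sites are given below with 11 bases on each side and the match in capitals.
Tet1, 3′ UTR base 640: atattttaaaaAGCACTTtctacttttaa
Tet1, 3′ UTR base 7496: aaaatagttaaAGCACTTcatgacattaa
Tet2, 3′ UTR base 816: tgtcttagaaaAGCACTTtgcctacctaa
None of the other 7 genes held this heptamer, and the Tet3 transcript used has no annotated 3′ UTR. Of 12163 genes with a 3′ UTR, 16.5% held a match. The 3′ UTR was 7955 bases in Tet1 (percentile 99.2 of all genes) and 3058 bases in Tet2 (percentile 86.1). Dnmt3a, with 6696 bases (percentile 98.5), held none. Neither microRNA levels nor binding were measured here.

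The other genes of the pathway were taken from 5 lists with 48 genes, all of which passed the filter. In total RNA 2 were called higher, against 16.3% of all genes, and 7 lower, against 11.2%, with a median change of -0.14 against 0.02 over all genes. In nascent RNA the counts were also 2 and 7, against 11.9% and 13.5% of all genes. In stability 0 of 48 were called by limma-voom, edgeR or DESeq2, against 1.24% of all genes higher and 0.305% lower in limma-voom, and 22 had an unadjusted p under 0.05 in limma-voom. Without both ESC replicate 3 libraries the counts in total RNA were 2 and 6. In 7 of 23 alternative fits, that one among them, 1 gene was called lower in stability. This was Prdm14 (limma-voom adjusted p = 0.00980 to 0.0444), whose EpiLC reads were at 0 or 1, so that its fitted size depends on the prior count.

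Among the partners of maintenance and imprint protection, 2 of 9 were called lower in total RNA and 0 higher, against 11.2% and 16.3% of all genes. Zfp57, which protects methylation at imprinted regions, went from 344 to 57.3 CPM (-2.59 ± 0.10, limma-voom adjusted p = 5.50e-11). Zbtb24 was at 33.2 and 16.1 CPM (-1.02 ± 0.13, limma-voom adjusted p = 8.95e-06), and its call held in 18 of 23 alternative fits. Uhrf2, the paralog of Uhrf1, had a difference of 0.31 ± 0.08 (limma-voom adjusted p = 0.00417), under the fold threshold and opposite in sign to Uhrf1. Among the 10 readers of CpG or methyl-CpG, only Zbtb38 was called, lower at -1.41 ± 0.11 (limma-voom adjusted p = 3.66e-08), where 11.2% of all genes were called lower.

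Among 15 base excision and demethylation partners 2 were called higher and 2 lower, near the shares of 16.3% and 11.2% over all genes. Parp1, a sensor of strand breaks, went from 1584 to 752 CPM (-1.07 ± 0.08, limma-voom adjusted p = 1.75e-08), with its call kept in 22 of 23 alternative fits. The glycosylase genes Neil1 (-1.18 ± 0.16, limma-voom adjusted p = 1.69e-05) and Neil3 (1.34 ± 0.13, limma-voom adjusted p = 3.70e-07) were called in opposite directions. Cxxc4, a CXXC-domain gene next to Tet2 in the genome, had 0 to 2 reads in ESC total and 35 to 49 reads in EpiLC total libraries (limma-voom adjusted p = 1.12e-06), opposite to Tet2. Cxxc4 passed the filter on low counts only through EpiLC libraries, so it could only be called higher. Of 6 genes that supply the methyl donor or the Tet cofactor, Idh2, a mitochondrial producer of 2-oxoglutarate, was called lower (365 to 81.9 CPM, -2.16 ± 0.08, limma-voom adjusted p = 2.51e-11). In a list of 8 genes that target or restrain de novo methylation, only Prdm14 was called, and it was lower. Prdm14 is a naive pluripotency factor known to restrain the Dnmt3 genes. It had 503 to 803 reads in ESC total and 0 to 1 in EpiLC total libraries (limma-voom adjusted p = 4.37e-09).

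For each of the 9 genes the protein-coding genes with the most similar level across the 12 libraries were listed, by Pearson's r of log2 CPM among genes averaging 10 CPM or more. Dnmt3b was most like Tpm2, Nin and Vcl (r 0.991 to 0.993), and Dnmt3a most like Eef1akmt1, Rps6ka6 and Psip1 (0.994 to 0.996). Tet2 was most like Cobl, Zfp607b and Whamm (0.995 to 0.998), and Tet1 most like Zbtb44, Zfp706 and Slc29a3 (0.974 to 0.980). Dnmt3l was most like Zfp428, Eif2d and Atrx (0.991 to 0.994), Dnmt1 like Dctn2, Cyfip1 and Cdk5rap3 (0.998 to 0.999) and Uhrf1 like Sod1, Actl6a and Dhx40 (0.996 to 0.997). Tet3 was most like Kdm6b, Fmn1 and Zfp612 (0.988 to 0.993), and Tdg like Tfg, Dgcr8 and Sfpq (0.976 to 0.982). The libraries share assay and cell type, and these account for much of any such r, so the values are a description only.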

How the data were processed

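Per the labels, RNA of mouse ESCs and EpiLCs was sequenced from total and 4sU fractions in 3 libraries each. The authors trimmed single-end 50-base reads with cutadapt 1.14, aligned them to mm10 with STAR 2.5.3a, kept uniquely placed reads and deposited raw read counts per gene from strand-specific featureCounts 1.5.3 with GENCODE M14. Spike-in entries held 0 reads, so no absolute scale exists. Gene symbols came from GENCODE M21 (51274 of 51467 IDs matched).

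Genes with 3 CPM or more in at least 3 libraries (14731) entered limma-voom (limma 3.58.1, edgeR 4.0.16, R 4.3.3) with a mean per group, after a test on simulated data. The limma linear model and this filter follow the study's methods, while voom and TMM scaling were chosen here. Stability was the interaction of cell type and assay. Named genes were the 9 members, the pathway genes called in total RNA or stability, and for each member the 3 most correlated genes. Uhrf2 was also named, after its value was seen. Other scalings, filters, edgeR, DESeq2, weights, blocks and left-out libraries were alternatives. Members and lists were chosen with earlier results of these data known. The labels number the replicates but do not say whether they are separate cultures, so p-values measure the spread between these libraries. Reads have no molecular identifiers, so depth covers counting error only.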

Additional observations from a re-analysis of the deposited data

Results flagged for a closer look

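In 2 of the 9 genes the change between ESCs and EpiLCs differed between total and nascent RNA by a test of that difference. Uhrf1 had a stability change of -0.63 (limma-voom adjusted p = 0.00503) and Dnmt1 one of -0.46 (limma-voom adjusted p = 0.0339). An adjusted p under 0.05 was reached by 4.6% of all genes in this fit. The count was 3 with DESeq2 (7.95% of all genes) and 4 with a block per culture (11.8%). It was 6 without both ESC replicate 3 libraries (20.4%). There Tet1 (0.94), Tet2 (0.60), Tet3 (0.78) and Dnmt3l (-0.62) also had a limma-voom adjusted p under 0.05. In Uhrf1 and Dnmt1 the 3 EpiLC cultures lay below the 3 ESC cultures in relative stability, a pattern whose share over all genes was not counted. Neither reached the fold threshold. Outlying libraries were looked for only through pairs of replicates and left-out libraries, where ESC replicate 3 stood apart.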

How the results depend on the processing

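Dnmt3b, Uhrf1, Dnmt3l and Tet2 kept their calls in total RNA in all 23 alternative fits. With the adjusted p alone, 4 of the 9 genes were higher and 5 lower in total RNA, and 2 were lower in stability. Dnmt3a was called in 20 of 23 fits in total RNA and 22 in nascent RNA, and Tet3 in 4 of 23 in total RNA. Without both ESC replicate 3 libraries, a choice made with earlier results known, 1 gene was called higher in nascent RNA. The sign turned only for values near 0. The nascent difference of Dnmt1 was -0.059 without both ESC replicate 3 libraries and ran from -0.028 to 0.14 over leave-one-out fits. The stability change of Dnmt3a was 0.027 with library totals and ran from -0.22 to 0.060. The nascent call of Dnmt3l was also lost with only the 6 4sU libraries (-0.9997). From raw counts with no length correction, Dnmt3a plus Dnmt3b to Dnmt1 rose by 2.96 (total) and 2.39 (4sU) on the log2 scale, against 3.27 and 2.77 per length. All other alternatives left the counts of called members within 1.5 times. Same-numbered libraries deviated together weakly (r 0.213 to 0.462 within ESCs, 0.0230 to 0.0916 within EpiLCs, -0.128 to -0.00589 between cell types). Not every pair passed the limit of 0.1 set for pairing, so the main fit used no block. The paper states that extracted RNA was split into the total and 4sU fractions. The main stability test thus leaves out any pairing of these libraries. With the replicate number as a block, 2 of the 9 genes were called higher and 3 lower in total RNA, and over all genes stability calls went from 182 and 45 to 281 and 73. With a block per culture they were 438 and 90, and the stability changes of Dnmt3l (-0.63, limma-voom adjusted p = 0.0101) and Tet3 (0.56, limma-voom adjusted p = 0.0481) passed the adjusted p, as did those of Uhrf1 and Dnmt1. The 4sU depth limits Tdg, with 44 to 83 reads per library. The cause of these shifts was not tested.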
